A study of Mus musculus with 24 samples.

Results

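Bdnf, Ntrk2, Arc, Homer1, Gadd45b and Nrn1 are genes of neuronal plasticity, and their expression was followed after a light pulse in 3 subregions of the mouse suprachiasmatic nucleus (SCN), the seat of the master circadian clock in the hypothalamus. The 6 genes were taken by symbol from the 18193 genes with a probe set on the array. They have 21 probe sets in all: 2 for Bdnf, 8 for Ntrk2, 1 for Arc, 6 for Homer1, 3 for Gadd45b and 1 for Nrn1. The brightest probe set of a gene, by its mean over the 24 arrays, led, and the others are reported beside it. All 6 genes passed the filter on low values (a log2 value above 4 on at least 4 arrays), as did 13494 genes in all. Of the 21 probe sets, 19 passed, and 1422168_a_at of Bdnf and 1425671_at of Homer1 did not.

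C57BL/6 mice, 8 weeks old at arrival, were kept without timing cues in constant dim red light and then received a 30 min light pulse, timed to advance the clock, or were sham treated. They were killed 3.5 h later, and laser microdissection separated the dorsal, the central and the ventral (core) SCN. The 6 groups (3 regions, light or sham) had 4 arrays each, of which replicates 1 and 2 were amplified and labelled in batch A and replicates 3 and 4 in batch B. The labels do not say how many animals stand behind an array or which arrays share an animal, so the p-values measure only the spread between these samples. The labels give 1 strain for all groups and no genetic change.

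BDNF is a secreted neurotrophin, and Ntrk2 encodes TrkB, its receptor, which exists as a full-length kinase and as truncated forms without the kinase that are common in astrocytes. In many neurons calcium entry and MAP kinase signalling switch on Bdnf, Arc and a short form of Homer1 through CREB and related factors. Arc drives removal of AMPA receptors from synapses. The long Homer1 proteins tether metabotropic glutamate receptors to the postsynaptic scaffold, and the short form lacks the coiled coil and undoes that link. Gadd45b takes part in DNA demethylation and stress signalling, and Nrn1 (neuritin) is a membrane-anchored protein that promotes growth of neurites and synapses. In the SCN, glutamate and PACAP from the retina carry the light signal, and BDNF with TrkB is known to bear on how light shifts the clock.

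Values are log2 expression values as deposited. Batch A arrays had medians of 3.52 to 3.62 and batch B arrays medians of 4.81 to 5.07, so levels are compared within a batch or with batch as a term, and never between probe sets. Of 2 arrays that stood apart, array 4 of the dorsal light group was the farther. Its median correlation within batch B was 0.913, and the next lowest was 0.977. Its Gapdh 3′ minus 5′ difference was 5.41, against 0.887 to 1.07 on the other batch B arrays and 2.02 to 3.28 on the batch A arrays. In batch A, array 2 of the central light group had a median correlation of 0.955, where the next lowest was 0.976. Markers of the SCN core and shell did not all follow the dissected regions. Of 3 core markers, Vip was higher in the ventral than in the dorsal SCN by 3.44 ± 0.298 (SE; limma, adjusted p = 9.97e-08) and Grp by 1.58 ± 0.141 (adjusted p = 1.56e-07), while Calb1 had a value of -0.39 ± 0.099 (adjusted p = 0.0198). Ventral minus central was -0.89 ± 0.141 for Grp (adjusted p = 0.000251). Of 2 measured shell markers, Avp had a ventral minus dorsal value of -1.43 ± 0.249 (adjusted p = 0.00074), and Prokr2 did not pass (0.25 ± 0.154, adjusted p = 0.479).

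One Homer1 probe set rose strongly after light in every region, while none of the 6 leading probe sets did. Signal of Homer1 probe set 1436387_at was 9.25-fold higher after the pulse in the ventral, 5.91-fold in the central and 3.35-fold in the dorsal SCN. The leading Homer1 probe set, 1437363_at, differed by no more than 1.16-fold in any region. Bdnf, its receptor gene Ntrk2, Arc, Gadd45b and Nrn1 did not pass the test in any region or in the average of the regions.

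In the ventral SCN, probe set 1436387_at of Homer1 read 8.80 and 8.69 on the batch A light arrays against 5.54 and 6.04 on the sham arrays, and 10.77 and 10.48 against 7.06 and 7.28 in batch B. In the central SCN the light arrays read 8.49 and 8.10 in batch A and 10.65 and 10.21 in batch B, and the sham arrays 5.95 and 6.03, and 7.08 and 8.13. In the dorsal SCN the light arrays read 7.42 and 7.42, and 9.92 and 9.45, and the sham arrays 5.71 and 5.41, and 7.96 and 8.15. Within each batch every light array lay above every sham array of its region, and the ventral and central light arrays were the highest.

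In the fit on all 25067 tested probe sets the light effect of 1436387_at was 3.21 ± 0.235 in the ventral SCN (log2, SE; 95% interval 2.72 to 3.70; limma, adjusted p = 4.54e-08). It was 2.56 ± 0.235 in the central SCN (adjusted p = 3.39e-06) and 1.75 ± 0.235 in the dorsal SCN (95% interval 1.26 to 2.23; adjusted p = 0.00177). The mean over the regions, fitted on 8 composites of 3 arrays, was 2.51 ± 0.162, or 5.68-fold (adjusted p = 0.000133). By p-value this probe set ranked 2 in the ventral, 2 in the central, 3 in the dorsal and 2 in the averaged effect. With it, 1 of the 19 probe sets of the 6 genes passed in each of these comparisons. Over all probe sets 0.487% passed in the ventral, 0.251% in the central, 0.0918% in the dorsal and 0.291% in the averaged effect. Without the dorsal light array 4 its dorsal effect was 1.77 (adjusted p = 0.00182), and without the central light array 2 its central effect was 2.66 (adjusted p = 1.23e-05). The dorsal effect fell short of the threshold when the 8 dorsal arrays were fitted alone (1.75, adjusted p = 0.255) and in batch A alone (1.86, adjusted p = 0.0638) or batch B alone (1.63, adjusted p = 0.516). The central effect did so in batch B alone (2.82, adjusted p = 0.0731), and the averaged effect in batch A alone (2.37, adjusted p = 0.0693). Without the batch term none of the 4 passed (adjusted p = 1).

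**Figure D1:**
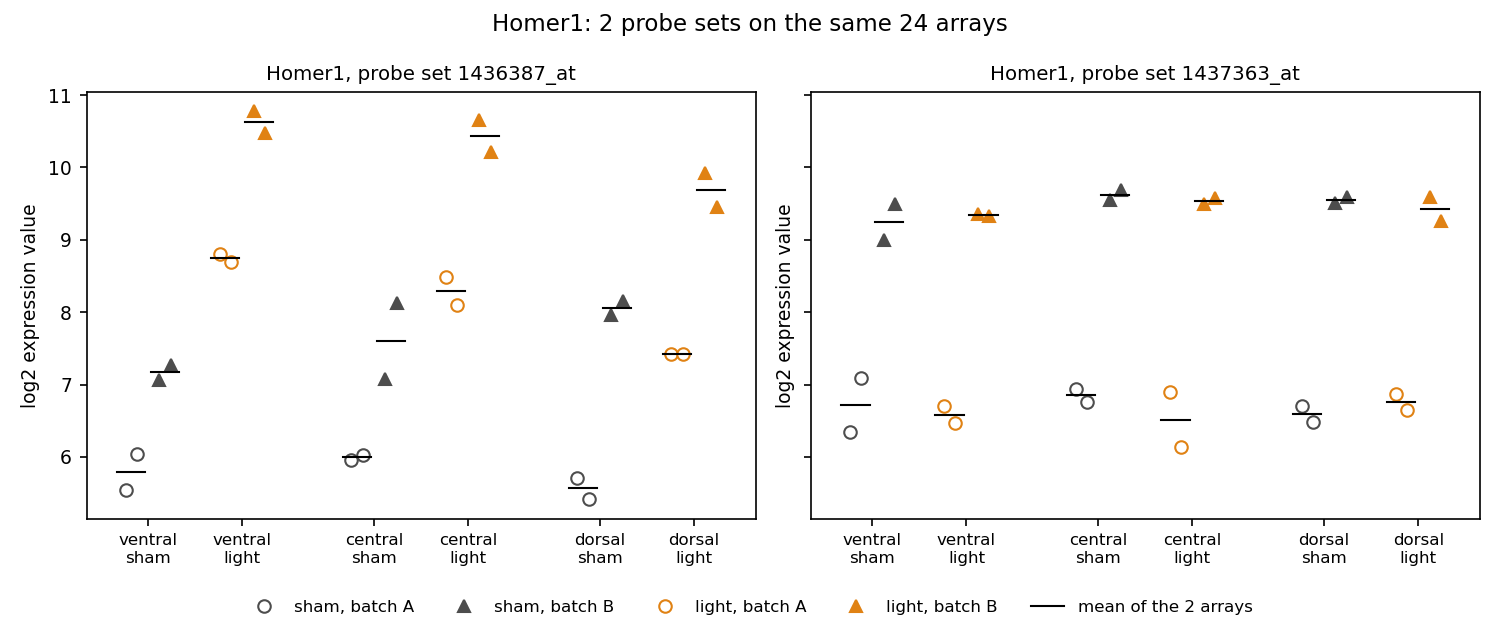
Log2 expression values of 2 Homer1 probe sets on the same 24 arrays, by region and treatment (horizontal axis). Each point is 1 array (open circles batch A, filled triangles batch B), and lines are means of the 2 arrays of a group in a batch. On the left (1436387_at) the light arrays lie above the sham arrays of their batch in every region, and on the right (1437363_at) light and sham overlap.

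None of the other 4 tested Homer1 probe sets passed for light. The leading one, 1437363_at, was well measured in both batches, with values of 6.13 to 7.09 in batch A and 8.99 to 9.68 in batch B. Its light effect was -0.02 ± 0.183 in the ventral, -0.21 ± 0.183 in the central and 0.02 ± 0.183 in the dorsal SCN, and the ventral 95% interval ran from -0.40 to 0.36. Probe set 1439662_at, over 4 on all arrays, did not pass either, nor did 1421768_a_at and 1425710_a_at, which were under 4 on all 12 batch A arrays. To test the disagreement itself, the value of each probe set minus the mean of the other tested probe sets of its gene was fitted over 18046 probe sets of 6493 genes. The light effect of 1436387_at exceeded that of the other 4 by 3.09 ± 0.287 in the ventral (limma, adjusted p = 6.12e-06), 2.65 ± 0.287 in the central (adjusted p = 9.7e-05) and 1.87 ± 0.287 in the dorsal SCN (adjusted p = 0.0281), and by 2.54 ± 0.196 on average (adjusted p = 0.00211). Such a disagreement passed for 0.0831% of probe sets in the ventral, 0.0277% in the central, 0.00554% in the dorsal and 0.00554% in the averaged effect. It passed in the light comparisons for no probe set of Ntrk2 or Gadd45b. This test was chosen after the values were seen. Which Homer1 transcript each probe set reads was not given, so the rise belongs to that probe set and is not assigned to a form of the protein.

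The fitted rise was largest in the ventral and smallest in the dorsal SCN, but these differences did not pass over all probe sets. The ventral effect exceeded the dorsal one by 1.46 ± 0.333 (95% interval 0.77 to 2.15; unadjusted p = 0.00023, limma adjusted p = 0.955) and the central effect exceeded it by 0.82 ± 0.333 (unadjusted p = 0.0225, adjusted p = 0.992). The moderated F test of light by region had an unadjusted p of 0.000953 and an adjusted p of 1 for this probe set, and 0% of all probe sets passed it. The interaction in the fit on all probe sets was a test added after the values were seen. Among the 6 leading probe sets 0 passed the interaction, none had an unadjusted p under 0.05, and 0.00741% of all genes passed. The sham levels of 1436387_at did not pass between regions either, with differences of -0.33, -0.32 and -0.01 for ventral minus dorsal, ventral minus central and central minus dorsal.

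A start of Homer1 is shown because 1 probe set of that gene rose after light. Which start belongs to the transcript that this probe set reads was not given. A start of Bdnf is shown because it holds the only match among the Bdnf windows. RefSeq promoter windows (build GRCm38.p6, 250 bases before to 50 after a start) were found for 4 of the 6 genes: 7 for Bdnf, 2 for Homer1 and 1 each for Ntrk2 and Gadd45b. The 250 bases before the start are printed, 5′ to 3′ on the plus strand, with capitals for TGACG, the short form of the cyclic AMP response element (CRE) that CREB binds, or its reverse complement.
Homer1, chr13:93303507-93303756: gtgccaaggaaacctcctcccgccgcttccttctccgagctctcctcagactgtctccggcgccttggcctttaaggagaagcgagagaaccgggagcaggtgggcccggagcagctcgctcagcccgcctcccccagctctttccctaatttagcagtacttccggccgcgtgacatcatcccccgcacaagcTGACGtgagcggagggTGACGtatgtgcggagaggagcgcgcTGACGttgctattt
Bdnf, chr2:109692186-109692435: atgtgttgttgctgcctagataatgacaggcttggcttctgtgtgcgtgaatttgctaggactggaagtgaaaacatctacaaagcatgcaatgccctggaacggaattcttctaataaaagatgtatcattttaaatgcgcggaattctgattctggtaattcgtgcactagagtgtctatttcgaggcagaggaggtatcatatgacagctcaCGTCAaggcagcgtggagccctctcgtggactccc
The Homer1 stretch has 3 of these motifs, whose first bases lie 56, 40 and 14 bases before the start, all with TGACG on the gene's strand. The Bdnf stretch has 1, on the other strand, 35 bases before the start. Of 32851 windows of 300 bases in the table, 20.8% held at least 1 of them on either strand and 1.03% held 3 or more. The second Homer1 window, the other 6 Bdnf windows and those of Ntrk2 and Gadd45b held 0. The full palindrome TGACGTCA, which contains the short motif on both strands, overlapping, was in none of the windows of the 6 genes and in 1.79% of all windows. Of the other motifs searched on both strands, the Gadd45b window held 1 TATAAA (13.6% of all windows) and 1 E-box CACGTG (7.15%), and no window of the 6 genes held a CArG box (1.63%). These are matches of letters and do not say which factor binds.

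For the secreted ligand the ventral value was the largest of the 6 leading probe sets, and it did not pass. Bdnf read 5.05 and 5.91 on the ventral light arrays of batch A against 3.90 and 4.62 on the sham arrays, and 5.57 and 6.85 against 4.87 and 6.66 in batch B. The light arrays were above the sham arrays in batch A, by 1.22 on average, and the groups overlapped in batch B, where the difference was 0.44. Set against the sham array of the same replicate number, the light array was higher for 4 of 4 numbers in the ventral SCN (by 1.14, 1.29, 0.70 and 0.19), 3 of 4 in the central and 2 of 4 in the dorsal SCN. The leading probe sets of Ntrk2 and Gadd45b were also higher for 4 of 4 numbers in the ventral SCN. Those of Arc, Homer1 and Nrn1 were higher there for 3, 2 and 1 of 4. The share of all genes with 4 of 4 was not computed. The fitted ventral effect was 0.83 ± 0.463 (1.78-fold; 95% interval -0.13 to 1.79; limma, adjusted p = 0.88). The central effect was -0.08 and the dorsal effect -0.15, with the same standard error. With the leading probe sets, 0 of 6 genes passed in the ventral SCN, where 0.719% of all genes did, and 0 of 6 had an unadjusted p under 0.05.

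Within a batch, Bdnf was higher on the array with the higher replicate number in 12 of 12 pairs. Array 2 was above array 1 in 6 of 6 groups, and array 4 above array 3 in 6 of 6 groups. The means over the 6 groups were 4.5 ± 0.456 (SD), 5.24 ± 0.457, 5.29 ± 0.453 and 6.58 ± 0.356 for numbers 1 to 4. The lowest batch B value, 4.64, was on array 3 of the central light group. With the replicate number in place of the batch in the fit, the ventral effect kept its size, with an adjusted p of 0.2. What the number stands for beyond the batch is not given in the labels. The second Bdnf probe set, 1422168_a_at, read between 2.79 and 3.76 and exceeded its own array's median on no array.

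**Figure D2:**
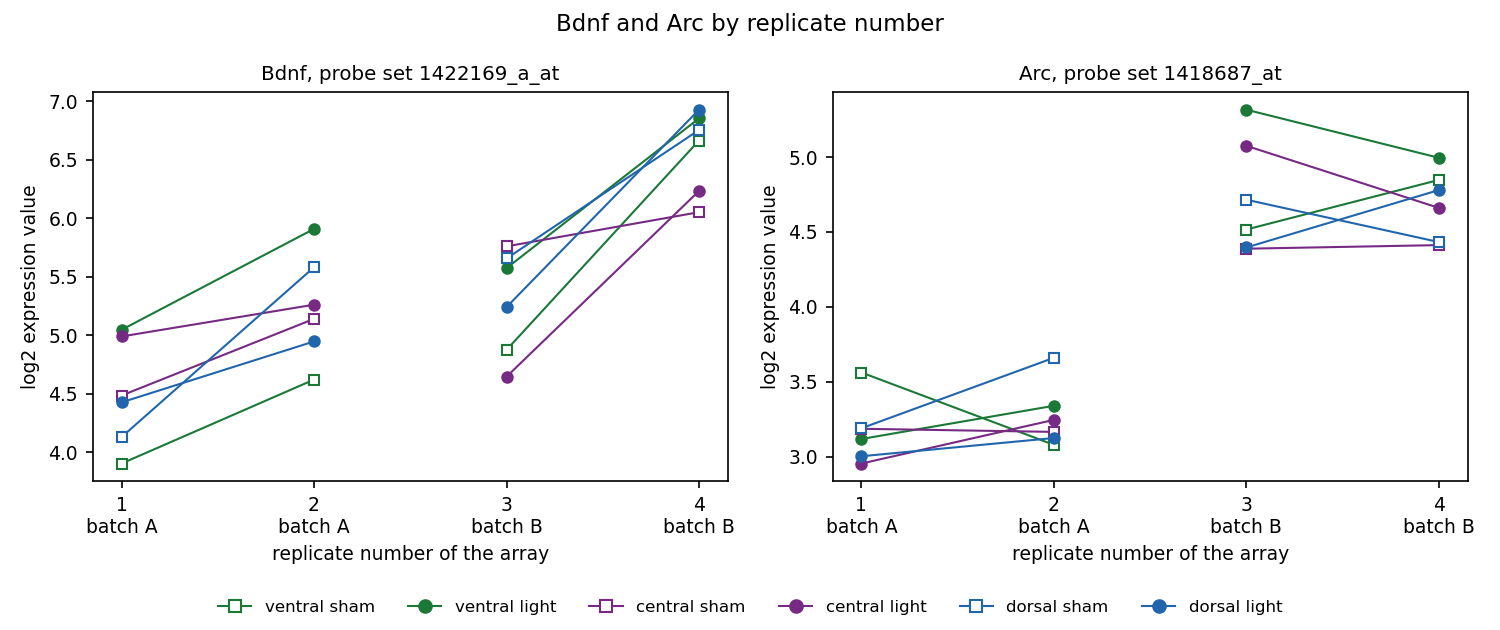
Log2 expression values of Bdnf (left) and Arc (right) against the replicate number of the array, with lines joining the 2 arrays of a group within a batch (colours are regions, filled circles light, open squares sham). Every Bdnf line rises from the lower to the higher number within its batch, and the Arc lines do not share a direction.

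The receptor gene Ntrk2 was measured over 4 on all arrays by its leading probe set and did not pass for light. In the ventral SCN the leading probe set, 1458622_at, read 8.65 and 8.32 on light arrays against 8.39 and 7.88 on sham arrays in batch A, and 10.19 and 10.15 against 9.85 and 10.07 in batch B. The groups overlapped in batch A, and light lay just above sham in batch B. Its light effect was 0.28 ± 0.221 in the ventral (95% interval -0.18 to 0.74; adjusted p = 1), 0.14 in the central and 0.19 in the dorsal SCN. None of its other 7 probe sets passed for light. In the dorsal SCN, 1435305_at read 6.57 on the dorsal light array 4 and 10.48 to 10.70 on the other 3 dorsal arrays of batch B.

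Arc, the effector that removes AMPA receptors, was close to background. It was under 4 on all 12 batch A arrays, and it exceeded its own array's median on 1 of them and on 3 of the 12 batch B arrays. In batch B it read 5.32 and 4.99 on ventral light against 4.52 and 4.85 on sham arrays, 5.07 and 4.66 against 4.39 and 4.41 in the central SCN, and 4.40 and 4.78 against 4.71 and 4.43 in the dorsal SCN. Light lay above sham in the ventral and central SCN of batch B, and the dorsal arrays overlapped. The fitted effects were 0.19 ± 0.186 in the ventral, 0.20 ± 0.186 in the central and -0.17 ± 0.186 in the dorsal SCN, and none passed (adjusted p = 1, 0.903 and 0.699). The ventral 95% interval ran from -0.19 to 0.58 on the log2 scale, so a modest change of Arc was left undecided. Whether the low signal hid a change was not tested.

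Gadd45b did not pass for light in any region. Its fitted effects were 0.53 ± 0.468 in the ventral, -0.10 ± 0.468 in the central and -0.64 ± 0.468 in the dorsal SCN. Central light minus sham changed sign between batches, at -0.44 in batch A and 0.24 in batch B. The dorsal value rested on the dorsal light array 4, and without that array it was 0.08 (adjusted p = 0.984).

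Nrn1 had the lowest light value of the set, in the dorsal SCN of batch B. There it read 6.37 and 4.99 on light arrays against 8.79 and 8.55 on sham arrays, while in batch A light read 4.81 and 5.77 and sham 4.73 and 5.87. The batch B light arrays lay well below the sham arrays, and those of batch A overlapped. Light minus sham was -2.99 in batch B and -0.01 in batch A, and the fit gave -1.50 ± 0.625 (unadjusted p = 0.0254, adjusted p = 0.454), or -1.01 (adjusted p = 0.806) without the dorsal light array 4. Trh, a peptide gene of neighbouring hypothalamic neurons, had a dorsal light value of -1.51 ± 0.376 (adjusted p = 0.142), and its part in the Nrn1 value was not tested. With the leading probe sets 0 of 6 genes passed in the central SCN, 0 of 6 in the dorsal SCN and 0 of 6 on average, where 0.385%, 0.178% and 0.408% of all genes passed. At an unadjusted p under 0.05 these counts were 0, 1 and 1, both Nrn1, whose averaged effect was -0.71 ± 0.317 (adjusted p = 0.521). That averaged effect ran from -1.6 to 0.18 over the alternative fits. In the central SCN the Nrn1 light arrays lay above the sham arrays in batch A, by 0.86, and below them in batch B, at -1.59. The median light effect of the 6 genes was 0.24 in the ventral, -0.09 in the central and -0.16 in the dorsal SCN, against -0.03, -0.08 and -0.03 over all genes.

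**Figure D3:**
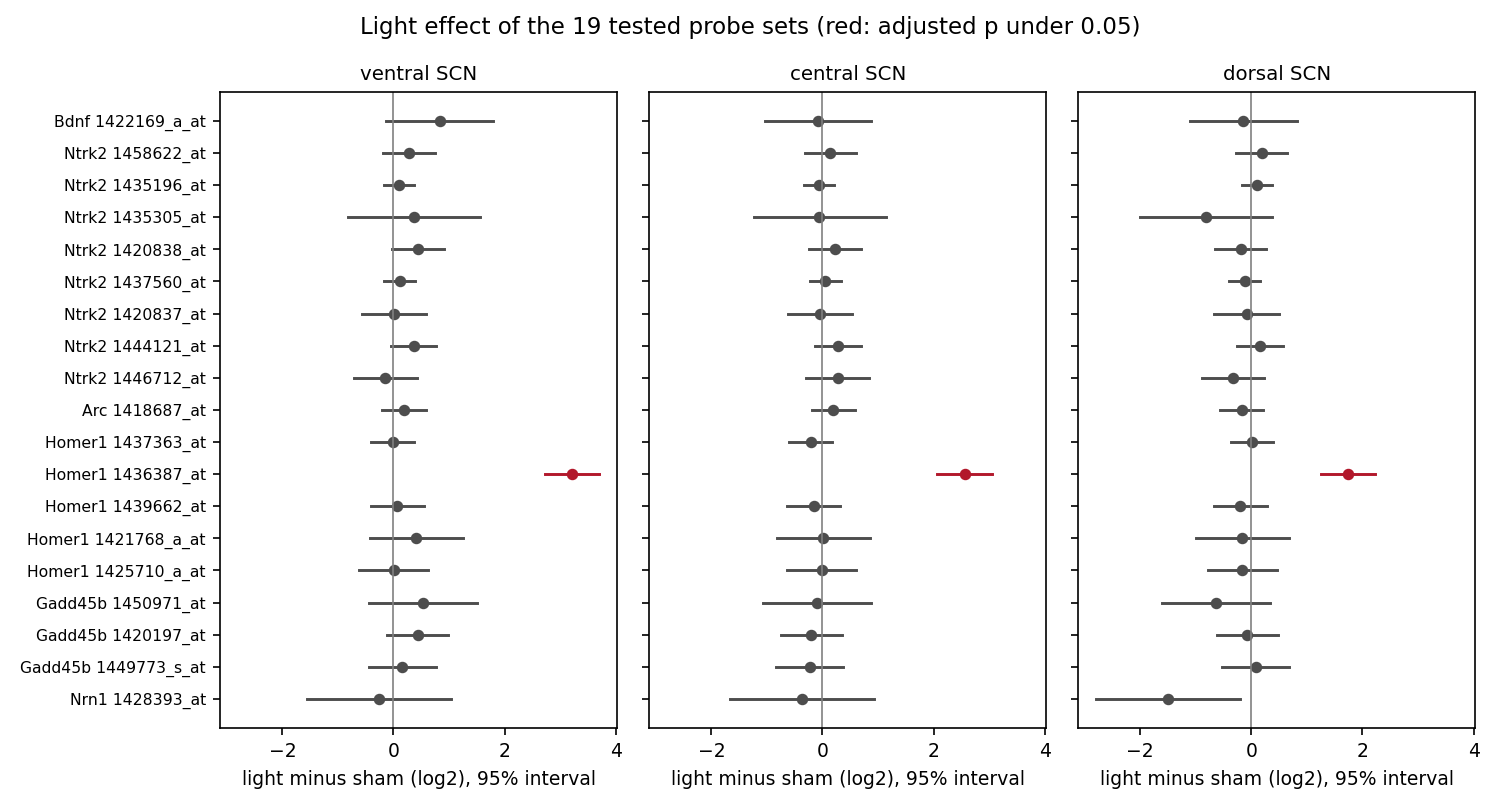
Light minus sham difference (log2, points) with 95% intervals (bars) for the 19 tested probe sets in the ventral, central and dorsal SCN, from the fit on all probe sets, with red for an adjusted p under 0.05. Probe set 1436387_at of Homer1 is red in all 3 regions, at 3.21, 2.56 and 1.75, and no other probe set is red.

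Among the genes around these 6 in their pathways, those that rose after light were other activity-induced effectors. Of 12 such effectors, 9 were tested, and 3 rose in the ventral, 2 in the central and 1 in the dorsal SCN. Over all genes 0.719%, 0.385% and 0.178% passed in either direction. This list was written with earlier results of these data known, so its counts and medians are a description and not a test of the list. Nptx1, a secreted pentraxin that clusters AMPA receptors, rose 10-fold in the ventral (3.33 ± 0.235, adjusted p = 2.73e-08), 8.35-fold in the central and 4.58-fold in the dorsal SCN. Vgf, a neuropeptide precursor that neurotrophins induce, rose 5.29-fold in the ventral (adjusted p = 3.91e-05) and 4.06-fold in the central SCN (adjusted p = 0.000806). Rheb, a small GTPase upstream of mTOR, rose 1.49-fold in the ventral SCN (adjusted p = 0.0111). The median effect of these 9 genes was 0.64 in the ventral, 0.22 in the central and 0.08 in the dorsal SCN, against -0.03, -0.08 and -0.03 over all genes. In the lists of neurotrophins and their receptors and processing (8 tested), TrkB adaptors (13), Homer partners and the postsynaptic scaffold (9), Arc partners and AMPA receptor endocytosis (12) and the Gadd45 family and DNA demethylation (9), 0 of 51 genes passed for light in any region or on average. At an unadjusted p under 0.05 there were 1, 5, 5 and 8 of the 51 in the ventral, central, dorsal and averaged effect (1.96%, 9.8%, 9.8% and 15.7%, against 6.56%, 8.06%, 10.1% and 9.52% of all genes). Of 9 astrocyte markers 1 rose, Gfap, by 1.28 ± 0.263 in the ventral and 1.33 ± 0.263 in the dorsal SCN (adjusted p = 0.018 and 0.0319), and 0 of 7 oligodendrocyte, 0 of 6 microglia and 0 of 6 neighbouring neuron markers passed for light. The log2 of the summed astrocyte markers in the ventral SCN was 12.7 on the light and 12.8 to 12.9 on the sham arrays of batch A, and 14.3 to 14.4 on both in batch B. Of 3 SCN core markers 0 passed for light. In the dorsal SCN the light value of Vip was 1.07 ± 0.422 (limma, adjusted p = 0.448). Grp had 0.76 ± 0.2 there (adjusted p = 0.176) and Calb1 0.31 ± 0.14 (adjusted p = 0.483). The median of these 3 was 0.76 in the dorsal, 0.10 in the central and -0.00102 in the ventral SCN. The part of Gfap, of astrocytes or of core neurons in the Homer1 rise was not tested.

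Gadd45b and Nrn1 differed in level between regions. With the leading probe sets 1 of 6 genes passed in each pair of regions: Gadd45b between ventral and dorsal, and Nrn1 between central and each of the others. Over all genes 4.61% passed for ventral against dorsal, 5.2% for ventral against central and 7.11% for central against dorsal. Counting all 19 probe sets, 2 passed for ventral against dorsal, 3 for ventral against central and 2 for central against dorsal, where 3.19%, 3.47% and 4.68% of all probe sets did. In these dissected pieces, fewer cells of a type and less RNA per cell cannot be told apart.

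Gadd45b was highest in the ventral SCN. In batch B its leading probe set read 9.06 and 8.99 (light) and 8.58 and 7.75 (sham) in the ventral SCN, and 7.33 and 4.68 (light) and 7.31 and 6.84 (sham) in the dorsal SCN. In batch A the ventral arrays read 4.02 and 4.42 (light) and 3.73 and 4.31 (sham), and the dorsal arrays 3.31 and 3.27 (light) and 3.34 and 3.65 (sham). Every ventral array lay above every dorsal array of its batch, and the batch A values were near background. The difference was 1.39 ± 0.331, or 2.62-fold (95% interval 0.70 to 2.08; limma, adjusted p = 0.0135). It was 0.73 in batch A alone (adjusted p = 0.117), 2.05 in batch B alone (adjusted p = 0.159), 1.03 without the dorsal light array 4 (adjusted p = 0.00394) and 0.81 over the sham arrays alone (adjusted p = 0.816). The other probe sets gave 0.76 (1449773_s_at, adjusted p = 0.0427) and 0.65 (1420197_at, adjusted p = 0.0661).

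The central SCN lay between in batch B but not in batch A, where its mean of 3.30 was below the dorsal mean of 3.39. It had values of 8.49 and 7.88 (light) and 8.56 and 7.34 (sham) in batch B and 2.93 to 3.67 in batch A. Neither of its differences passed (0.68 from ventral, adjusted p = 0.403, and 0.71 from dorsal, adjusted p = 0.236). Without the dorsal light array 4, the difference of 0.68 between ventral and central SCN had an adjusted p of 0.0452. Another family member, Gadd45a, was also higher in the ventral than in the dorsal SCN (0.84 ± 0.198, adjusted p = 0.0126) and than in the central SCN (0.71, adjusted p = 0.0376), while Gadd45g did not pass. Tet1, a DNA demethylase, was 1.00 ± 0.267 higher in the ventral than in the dorsal SCN (adjusted p = 0.0297).

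Nrn1 was low in the central SCN. In batch B it read 3.85 and 4.11 (light) and 5.24 and 5.91 (sham) there, against 7.65 and 7.78 (light) and 7.56 and 8.30 (sham) in the ventral SCN. In batch A the central arrays read 4.19 and 5.05 (light) and 4.16 and 3.36 (sham), and the ventral arrays 4.82 and 4.57 (light) and 4.95 and 5.05 (sham). Ventral and central SCN were far apart in batch B and overlapped in batch A. The central light readings of batch B, 3.85 and 4.11, were under the medians of their arrays, 5.03 and 4.91. Low signal there limits how well the size of the central differences is known. The dorsal arrays ran from 4.99 to 8.79 in batch B and from 4.73 to 5.87 in batch A, and overlapped the central arrays in both. Ventral minus central was 1.85 ± 0.442, or 3.61-fold (adjusted p = 0.0124), 0.66 in batch A and 3.05 in batch B. Central minus dorsal was -1.75 ± 0.442 (adjusted p = 0.0148), -1.11 in batch A and -2.40 in batch B. Over the sham arrays alone these were 1.80 (adjusted p = 0.271) and -2.32 (adjusted p = 0.0597). Ventral and dorsal SCN did not pass (0.10 ± 0.442).

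**Figure D4:**
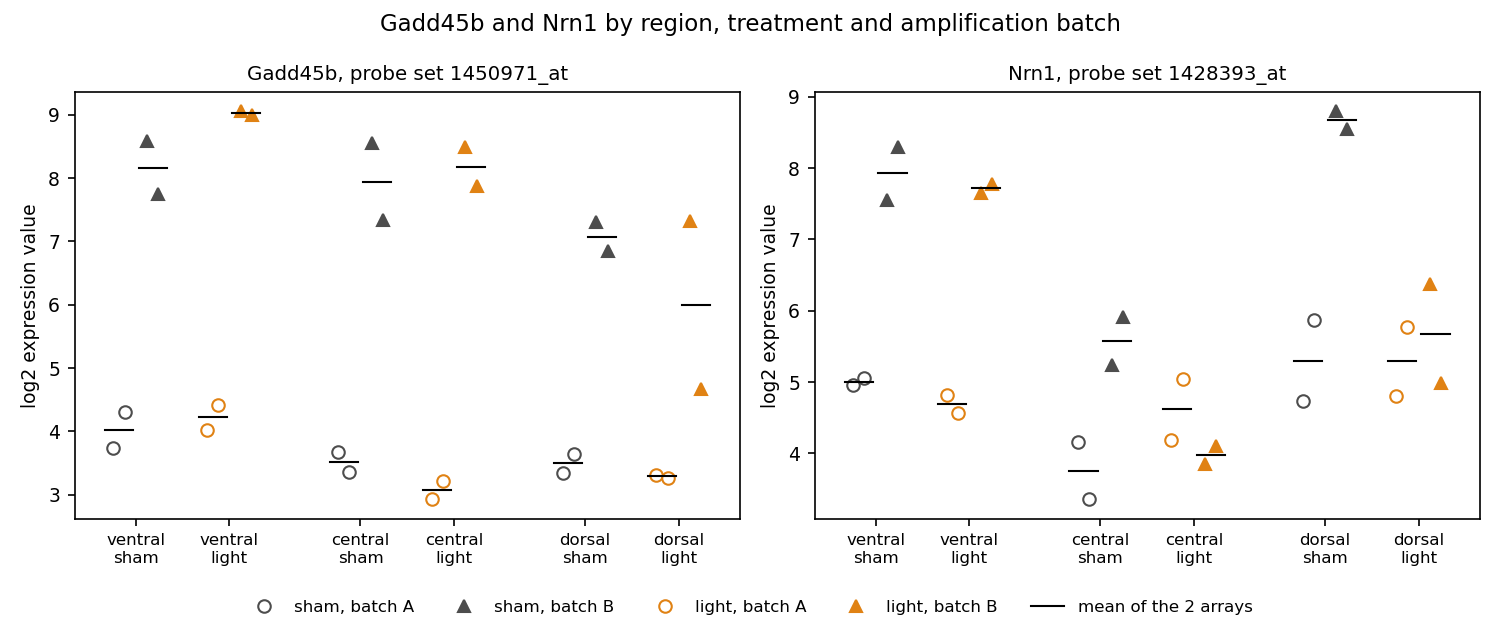
Log2 expression values of Gadd45b (left) and Nrn1 (right) on the 24 arrays by region and treatment, with open circles for batch A, filled triangles for batch B and lines for the mean of 2 arrays. Gadd45b spans 2.93 to 4.42 in batch A but 4.68 to 9.06 in batch B, and Nrn1 in batch B is below 6 in all 4 central arrays and above 7 in all 4 ventral arrays.

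Ntrk2 gave different region patterns by probe set. Probe set 1435196_at was higher in the ventral than in the central SCN, at 8.38 to 8.50 against 7.48 to 7.88 in batch A and 10.27 to 10.69 against 9.79 to 9.98 in batch B, with no overlap in either batch. The difference was 0.62 ± 0.0925 (adjusted p = 0.000162), and central minus dorsal was -0.44 ± 0.0925 (adjusted p = 0.00522). Probe set 1420838_at was also higher in the ventral than in the central SCN, by 0.60 ± 0.157 (adjusted p = 0.0314). The leading probe set had a ventral minus central value of -0.17 ± 0.157 and a ventral minus dorsal value of -0.35 (adjusted p = 0.29), and the other 5 had values from -0.0017 to 0.25 for ventral minus central and did not pass. Which Ntrk2 transcripts these probe sets read was not given.

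**Figure D5:**
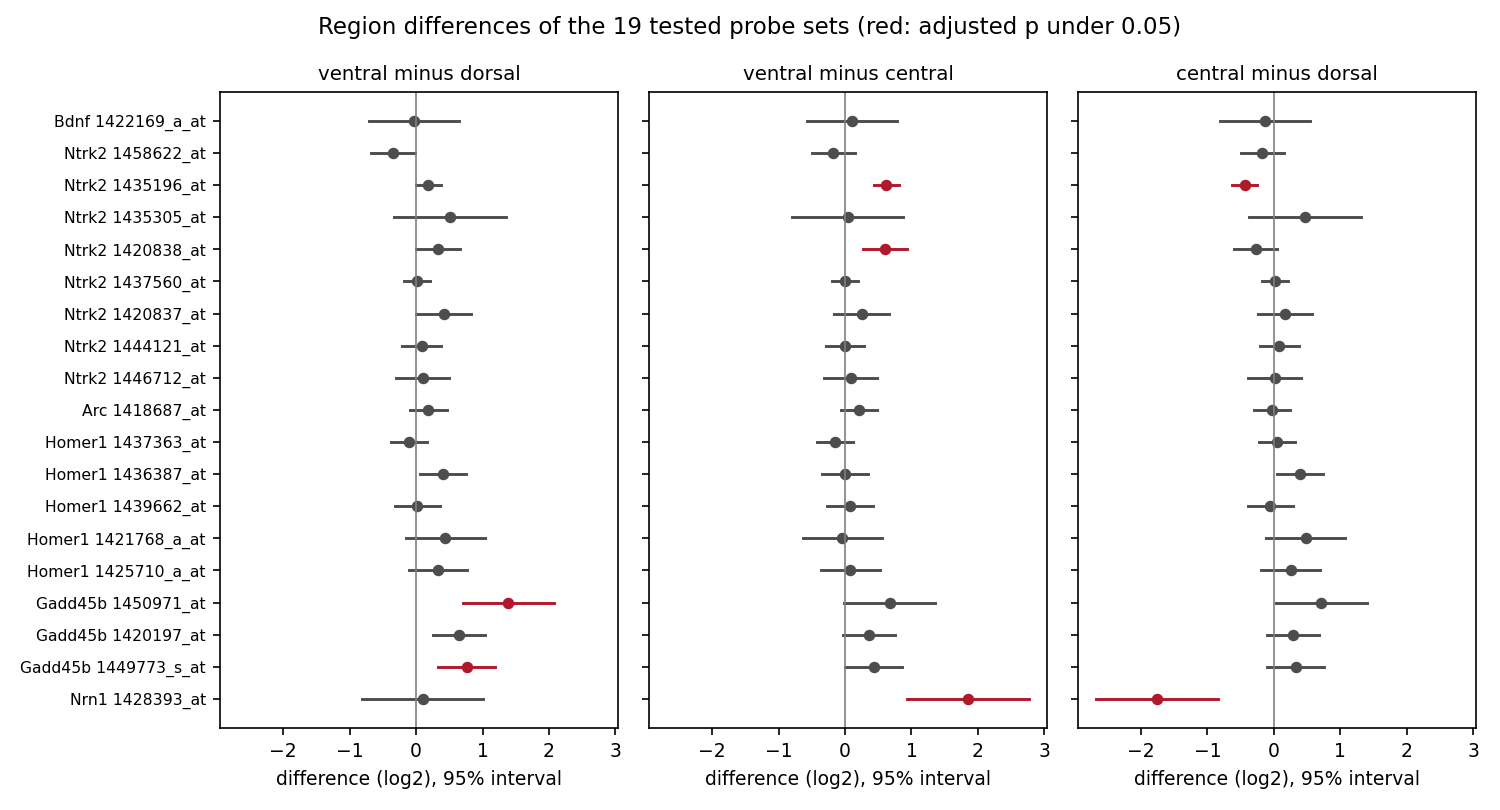
Differences between regions (log2, points) with 95% intervals (bars) for the 19 tested probe sets over 8 arrays a region, with red for an adjusted p under 0.05. Red marks 2 Gadd45b probe sets for ventral minus dorsal, Nrn1 and 2 Ntrk2 probe sets for ventral minus central, and Nrn1 and 1 Ntrk2 probe set for central minus dorsal.

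Bdnf, Arc and Homer1 did not pass between regions. In batch B, Bdnf read 5.99 ± 0.935 (SD, n = 4 arrays) in the ventral, 5.67 ± 0.712 in the central and 6.15 ± 0.825 in the dorsal SCN. Arc read 4.92 ± 0.332, 4.63 ± 0.319 and 4.58 ± 0.195, and the leading Homer1 probe set 9.29 ± 0.213, 9.58 ± 0.0809 and 9.49 ± 0.162. The largest of the fitted region differences of these leading probe sets was 0.21 ± 0.131 for Arc between ventral and central SCN (adjusted p = 0.624).

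Markers of other cell types moved with region in the same comparisons. Of 7 oligodendrocyte markers, 6 were higher in the ventral than in the dorsal SCN (median 1.14) and 7 than in the central SCN (median 2.64), and 6 were lower in the central than in the dorsal SCN (median -1.44). In batch B the log2 of their summed level ran from 13.4 to 13.7 in the ventral, 11.2 to 11.7 in the central and 12.6 to 13.3 in the dorsal SCN. Of 9 astrocyte markers, 3 were higher in the ventral than in the dorsal and 7 than in the central SCN. Of 6 markers of neighbouring hypothalamic neurons, 3 were lower in the ventral and 5 lower in the central than in the dorsal SCN, and the log2 of the summed level of all 7 in batch B ran from 7.73 to 8.81 in the ventral, 7.40 to 8.88 in the central and 11.3 to 12 in the dorsal SCN. Trh, of that last list, differed as Nrn1 did, by 1.87 ± 0.266 for ventral minus central and -1.92 ± 0.266 for central minus dorsal (adjusted p = 7.38e-05 and 4.64e-05). It was the only 1 of the 6 that passed for ventral minus central, where their median was 0.23. Ventral minus dorsal was -0.06 ± 0.266 for Trh but -5.26 ± 0.423 for Sst of the same list. The part of these cell types in the Gadd45b, Nrn1 and Ntrk2 differences was not tested.

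Of the 51 tested pathway genes outside the activity-induced effectors, 4 passed for ventral minus dorsal (7.84%), 3 for ventral minus central (5.88%) and 3 for central minus dorsal (5.88%), shares near the 4.61%, 5.2% and 7.11% of all genes. Gab1, an adaptor of TrkB signalling, was 1.46 ± 0.208 higher in the ventral than in the central SCN (adjusted p = 7.38e-05) and 0.79 higher than in the dorsal SCN (adjusted p = 0.0279). Gab2, a related adaptor, was 0.71 ± 0.181 lower in the central than in the dorsal SCN (adjusted p = 0.0154). These were the only 2 of 13 TrkB adaptors that passed between regions. Dlgap1, a scaffold protein that links PSD-95 to Shank and so to Homer, was the only 1 of 9 Homer partners to pass, at 0.92 ± 0.173 for ventral minus dorsal and 1.11 ± 0.173 for ventral minus central. Vgf was lower in the ventral (-1.31 ± 0.196) and central SCN (-0.91 ± 0.196) than in the dorsal SCN. Pcdh8, a protocadherin, was 1.37 ± 0.177 higher in the ventral than in the central SCN (adjusted p = 2.03e-05), and it was also lower in the central than in the dorsal SCN (adjusted p = 0.000722). Central minus dorsal was 0.70 ± 0.157 for Sorcs1, a sorting receptor, and -0.78 ± 0.232 for Cdkn1a, a cell cycle inhibitor (adjusted p = 0.00632 and 0.0418). Of 12 Arc partners 0 passed between regions.

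The genes most like each member were taken as the 3 with the highest lower value of the Pearson correlations within batch A and within batch B, over 12 arrays each, as a description. For probe set 1436387_at of Homer1 they were Nptx1 (0.969 and 0.989), Egr3 (0.944 and 0.950) and Trmt61b (0.926 and 0.942). All of these rose after light as well, Egr3 by 3.15 ± 0.514 (adjusted p = 0.0024) and Trmt61b by 1.57 ± 0.174 (adjusted p = 2.25e-05) in the ventral SCN. The correlations run over light and sham arrays, so genes picked by them for a probe set that rose tend to rise too. For Gadd45b they were Drd1 (0.859 and 0.877), Sox9 and Slc14a1 (0.782 and 0.783), and Drd1 was higher in the ventral than in the dorsal SCN by 1.24 ± 0.233 (adjusted p = 0.00157). On the dorsal light array 4, Gadd45b read 4.68, Drd1 8.55, Sox9 7.77 and Slc14a1 6.11, each the lowest of its batch B values. The part of that array in the batch B correlations was not tested. For Nrn1 they were Clec2d (0.723 and 0.720), Trh (0.719 and 0.798) and Otp (0.698 and 0.943). For Ntrk2 they were Atp6v1d, Hspa8 and Nptn, and for the leading Homer1 probe set Zfp275, Gpatch8 and Ccser1. For Bdnf they were Vmn2r26 (0.823 and 0.824), Vmn2r-ps54 and Fbxo43, and for Arc 9530036O11Rik (0.696 and 0.758), Lzic and Fzd9. The points share arrays, batch, region and treatment, so the correlations are not independent of these.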

How the data were processed

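The deposited table holds 1 log2 value per probe set and array, as made by the authors. Tools named, without their roles, in the submitters' processing notes are MAS5, R 3.0.2 and GCRMA 2.32.0. Probe sets were named from the platform annotation (34945 with 1 symbol, 932 with several, 9160 with none). Differences were fitted in R 4.3.3 with limma 3.58.1 (functions lmFit and eBayes, two-sided, Benjamini-Hochberg adjustment over the whole table), with 6 group means and batch on 24 arrays. Genes were fitted on the leading probe set (13494 tested of 18193), and all 25067 tested probe sets with 1 symbol in a second fit. A gene or probe set passed at an adjusted p under 0.05. Errors after ± are SE unless given as SD, and precision is limited by the number of arrays. The scripts were tested on simulated data.

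The members, lists, markers and the naming rule (the 6 genes, the 3 genes most like each, and list members that passed) were chosen with earlier results of these data known. Arrays with the same number and treatment deviated together across regions (correlations 0.185 to 0.623, all 12 pairs over 0.1). Same-numbered arrays that differed in both region and treatment did so too (0.209 to 0.422 in batch A, 0.101 to 0.29 in batch B). Between light and sham of a region 1 of 6 pairs, at 0.096, did not reach 0.1. The deviations thus went with the number, and whether a number marks shared animals is not given.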

Additional observations from a re-analysis of the deposited data

Results flagged for a closer look

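In 42 groups of 4 arrays (the 6 leading probe sets and Homer1 1436387_at in 6 groups), 1 array lay far from the other 3 in 3 groups, after each value was set against the mean of its batch. Chance flags about 1 group in 20. For Bdnf, array 3 of the central light group read 4.645, which is -1.29 from its batch mean, where the other 3 were 0.12 to 0.39 from theirs. For Gadd45b, array 4 of the dorsal light group read 4.677, -3.06 from its batch mean, where the others were -0.40 to -0.29 from theirs. That is the array with the high Gapdh 3′ minus 5′ difference of 5.41. For Homer1 probe set 1436387_at, array 3 of the dorsal light group read 9.921, 0.99 above its batch mean, where the others were 0.45 to 0.52 above theirs.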

How the results depend on the processing

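Of 1869 values under alternatives (the 6 leading probe sets and Homer1 1436387_at, 7 comparisons each), 1684 kept their direction and side of the threshold, 21 no longer passed, 156 changed sign without passing either way, 3 newly passed and 5 reversed to a passing value. The reversals were other probe sets: Homer1 1436387_at for light (3.21 ventral, 2.56 central, 2.51 average) and Ntrk2 1420838_at (0.60) and 1435196_at (0.62) for ventral minus central. Counting any probe set, 1 of 6 genes passed for light in the ventral, central, dorsal and averaged comparison, 2 for ventral minus central and 2 for central minus dorsal. A gene with more probe sets has more ways to pass by this rule. The share of all genes under it was not computed, so these counts cannot be judged against the shares given above.

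Without the batch term the values of Homer1 1436387_at (3.21, 2.56, 1.75 and 2.51), Gadd45b (1.39) and Nrn1 (1.85 and -1.75) did not pass, with an adjusted p of 1, and 0 of 6 genes passed between regions. In batch A alone Homer1 1436387_at missed the threshold in the dorsal (1.86) and averaged effect (2.37), and Gadd45b (0.73), Nrn1 (0.66 and -1.11) and all 3 region counts (0) did not pass. In batch B alone Homer1 1436387_at missed it in the central (2.82) and dorsal SCN (1.63), and for ventral minus dorsal Gadd45b did not pass (2.05, and 1.39 without the dorsal light array 4, an alternative chosen after seeing the data), with a count of 0 in both. These fits hold fewer arrays. The dorsal arrays alone gave 1.75 for Homer1 1436387_at (adjusted p = 0.255). Sham arrays alone gave 0.81 for Gadd45b, 1.80 and -2.32 for Nrn1 and counts of 0. Gadd45b probe set 1420197_at gave 0.65.

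Leaving out 1 array at a time gave 3.07 to 3.40, 2.32 to 2.69, 1.60 to 1.87 and 2.38 to 2.58 for Homer1 1436387_at, 1.03 to 1.52 for Gadd45b, 1.61 to 2.14 and -2.05 to -1.51 for Nrn1, all of which passed. The count was 1 to 2 for ventral minus central (2 without the dorsal light array 4) and 1 in the other pairs of regions. The replicate block in place of batch changed no call of the members: Homer1 1436387_at had adjusted p of 2.86e-07, 1.51e-05, 0.0027 and 0.000225, Gadd45b 0.00414 and Nrn1 0.015 and 0.0174. Low signal limits Arc, Gadd45b in batch A, and Nrn1 on part of the central arrays.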
